A study of Stenocereus queretaroensis with 6 samples.

Results

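Sugar and polyol transporters are the membrane proteins that carry sucrose, hexoses, sugar alcohols and inositol into, out of and within a plant cell. They were described here in cultured cells of the pitaya cactus *Stenocereus queretaroensis*, a tall fruit crop of western Mexico, by taking every assembled transcript cluster whose best Swiss-Prot protein hit carries the name of such a transporter. This gave 285 clusters of 170970 in the assembly, of which 76970 have a Swiss-Prot hit. The 285 clusters fall on 38 Swiss-Prot entries, here called hits, of which 28 are proteins of *Arabidopsis thaliana*, 6 of rice, 3 of castor bean and 1 of spinach. Names and functions therefore come from those plants, and several clusters usually share a hit.

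The cells grew as a suspension, that is, as single cells and small clumps in shaken liquid, in MS medium, the Murashige and Skoog salt mixture on which most plant cell cultures are kept. The medium held 8% sucrose in 3 libraries (titled SqR) and 3% sucrose in the other 3 libraries (titled SqY), and the labels name no other difference and do not say what R and Y stand for. Whether separate cultures stand behind the 3 libraries of a medium is also not given. The p-values therefore reflect only how these samples scatter, which may be technical. Each library was made from poly(A) RNA with a kit that does not mark strand, and held between 35475940 and 41146944 expected read counts.

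Plant sugar transporters belong to a few families. Hexose/proton symporters (STP proteins and sugar carriers) and sucrose/proton symporters (SUC or SUT proteins) use the proton gradient to pull sugar across a membrane, mostly the plasma membrane. SWEET proteins are uniporters that let sugar move either way along its gradient. ERD6-like proteins and monosaccharide-sensing proteins sit on the tonoplast, the membrane of the vacuole, where the ERD6-like type has been linked to release of sugar and the monosaccharide-sensing type loads it. Plastidic glucose transporters lie in the plastid envelope, and polyol and inositol transporters carry sugar alcohols and myo-inositol together with protons. In a cell suspension, sucrose of the medium can enter as such or as the hexoses made from it by cell wall invertase.

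The identity of the members was checked against features that the choice of members did not use. Of the 285 clusters, 222 carry the Pfam sugar transporter domain, and 30 of the 31 SWEET clusters carry the SWEET (MtN3) domain. Among the 30 SUC/SUT clusters 1 carries the sugar transporter domain and 17 carry no Pfam domain. All 285 have a hit in the NR protein database, which is no separate check of identity because NR includes the Swiss-Prot proteins. The best NR hit is a sugar beet (*Beta vulgaris*) protein for 200 and an ice plant (*Mesembryanthemum crystallinum*) protein for 21. Both plants are relatives of cacti in the order Caryophyllales. No member had a Swiss-Prot hit outside the plants. The clusters were 218 to 5405 bp long (median 2066 bp), and 90 clusters hold a predicted coding stretch of at least 400 codons.

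Transporter transcripts made up 0.207%, 0.203% and 0.190% of all counts in the 3 libraries at 8% sucrose, against 0.535%, 0.559% and 0.543% at 3% sucrose. Their summed level was 1911 ± 106 CPM at 8% sucrose and 5795 ± 190 CPM at 3% sucrose (SD, n = 3 each), a ratio of 0.330. CPM are counts scaled to a common total after TMM normalisation, which sets libraries on a common footing through the bulk of the clusters. A single cluster of sugar carrier protein C held 49.8% of all transporter counts, and without it the ratio was 0.638. The level was lower in each library at 8% sucrose than in any library at 3% sucrose, both with and without that cluster.

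The families did not move together. The summed level was lower at 8% sucrose for hexose symporters, SWEET proteins, ERD6-like proteins, monosaccharide-sensing proteins and plastidic glucose transporters. It was higher at 8% sucrose for SUC/SUT, polyol and inositol transporters. Within each of the 8 families the 3 libraries of one medium lay wholly apart from those of the other. The ratios of 8% over 3% sucrose ran from 0.185 for hexose symporters to 1.89 for polyol transporters. Family sums carry no test here, because the members were chosen with earlier results of these data known.

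**Figure D1:**
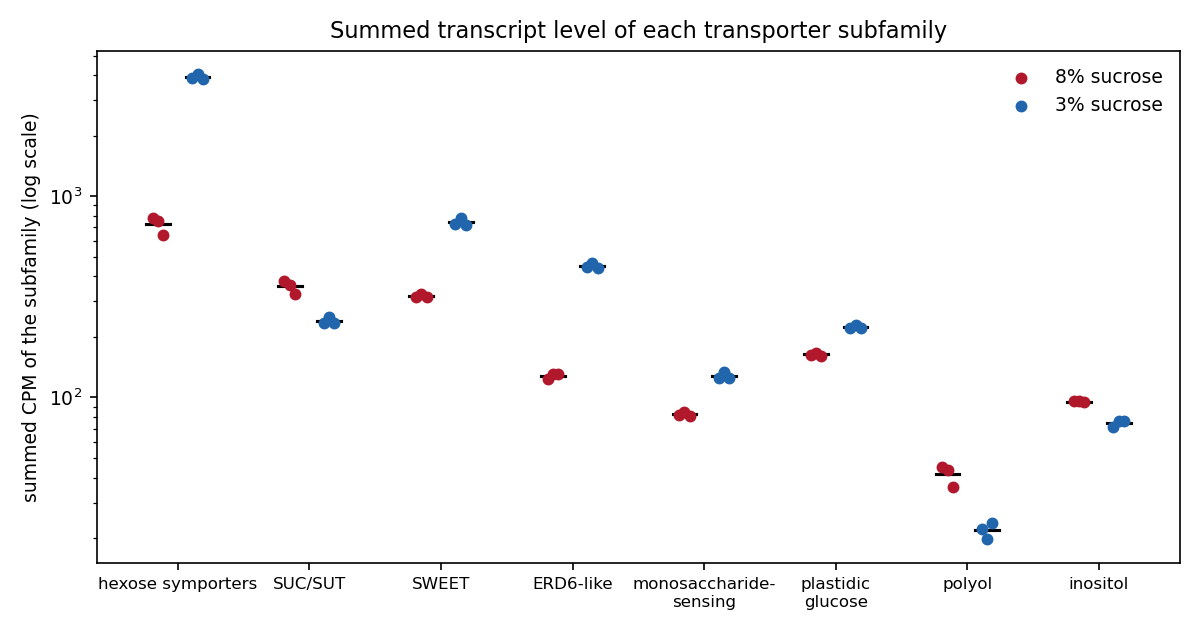
Summed CPM of all clusters of each transporter family (log scale) in each library, with 8% sucrose in red on the left and 3% sucrose in blue on the right of each pair. Points are single libraries (3 per medium) and black lines are means. Hexose symporters have the highest sum at 3% sucrose with a mean of 3911 CPM, against 725 CPM at 8% sucrose, and SUC/SUT, polyol and inositol transporters are the families whose red points lie above the blue ones.

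Cluster by cluster, 164 members had enough counts for the test, and these hold 99.6% of the members' counts. The other 121 could not be tested, 15 of them had no count in any library, and the most abundant of the 121 had 316 counts over all libraries. Of the 164, 38 rose at 8% sucrose, 50 fell and 76 were not called, by an adjusted p under 0.05 in the quasi-likelihood test of edgeR, with Benjamini-Hochberg adjustment over all 85038 tested clusters. The members called thus make 53.7%, while 54.6% of all tested clusters were called, so their share is near the background. The share of members that rose was 23.2%, against 29.1% of all tested clusters, and the share that fell was 30.5%, against 25.6%. A change of at least 2-fold was called for 35 that rose, where the background was 25.7% of all clusters, and for 38 that fell, where it was 20.1%. The libraries at 8% sucrose lay wholly above those at 3% sucrose for 44 members, or 26.8%, where the background was 36.6%, and wholly below for 61, or 37.2%, where the background was 31.0%. The median log2 fold change was -0.11 for the tested members and 0.19 for all tested clusters. Setting the 7 tested members that were at 0 in a medium to their bound left the members' median at -0.11.

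Because reads of a gene can be divided among clusters with the same hit, counts were also summed over each hit. Of the 38 hits 29 could be tested, of which 13 rose, 13 fell and 3 were not called in the same edgeR test, which makes 89.7% called, where 79.6% of all tested hits were called. The background was 39.9% higher and 39.7% lower. All 5 SUC/SUT hits, both tested polyol hits and 2 of 3 inositol hits rose, and all 4 tested ERD6-like hits and 4 of 5 tested SWEET hits fell. Of 5 tested hexose symporter hits 3 fell and none rose. For 10 hits, clusters of the same hit were called in both directions.

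The scale of the changes depends on which table sets the library scaling. TMM factors from the cluster table and from the hit table differ in opposite ways between the media, and switching from one to the other moves the median log2 fold change of all features by 0.35. With the scaling of the hit table, the member clusters split into 50 higher and 36 lower, and the calls over all clusters into 63.9% higher and 36.1% lower in place of 53.2% and 46.8%. With the scaling of the cluster table, the member hits split into 12 higher and 14 lower, and the calls over all hits into 37.4% higher in place of 50.2%. No family's summed level changed its direction under either scaling. Below, cluster and family values are on the scaling of the cluster table and hit values on the scaling of the hit table, unless said otherwise. CPM of a hit are taken against the counts of clusters with a Swiss-Prot hit only, so they run higher than CPM of clusters. A hit can thus exceed the sum of its family, and hit CPM should not be set beside cluster or family CPM.

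**Figure D2:**
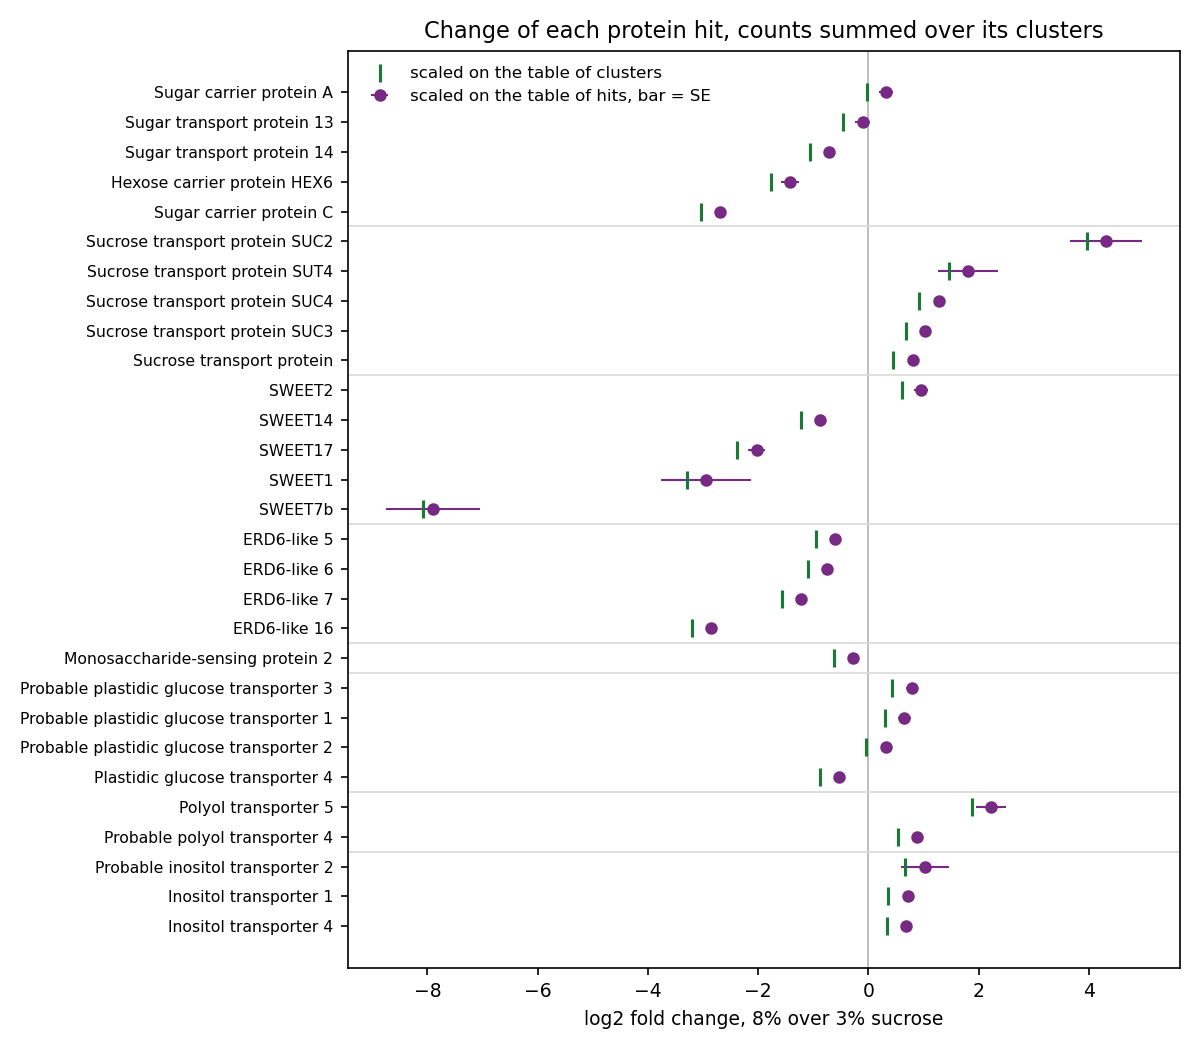
Log2 fold change (8% over 3% sucrose, horizontal axis) of each of the 29 tested protein hits, with counts summed over all clusters of a hit and hits grouped by family. Purple points use the scaling of the hit table, with bars of 1 SE, and green ticks the scaling of the cluster table. All SUC/SUT points lie right of 0 and all ERD6-like points left of 0 with either scaling, while probable plastidic glucose transporter 2 and sugar carrier protein A cross 0 between the scalings.

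A marker list for green cells was followed beside these results. Clusters of chlorophyll a-b binding proteins, the antenna proteins of chloroplasts, had a summed level between 43.1 and 44.8 CPM at 8% sucrose, against 881 to 920 CPM at 3% sucrose. Of its 38 clusters 25 were tested, of which 1 rose and 18 fell, and 10 of the 38 were at 0 in every library at 8% sucrose. Its part in the transporter results was not tested. In bulk RNA, fewer cells of a type and less RNA per cell cannot be told apart.

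Hexose symporters import glucose and related sugars from the cell wall space. Their summed level was 725 ± 70.5 CPM at 8% sucrose and 3911 ± 125 CPM at 3% sucrose (SD, n = 3 each), and a single cluster set most of that difference. Sugar carrier protein C (Cluster-2051.79589), whose namesake is a castor bean hexose carrier, had 415.5, 436 and 396 CPM at 8% sucrose, against 3404, 3595 and 3352 CPM at 3% sucrose. The groups are far apart, and the log2 fold change was -3.05 ± 0.05 (SE), with an adjusted p of 4.61e-07 (edgeR). Per kilobase of cluster length this was the most abundant transporter in the cells, with 213 CPM per kb at 8% sucrose and 1765 CPM per kb at 3% sucrose. The deposited values give no predicted coding stretch for this cluster, and its name rests on the protein hit (Swiss-Prot E-value 5.1e-212). Summed over its hit, sugar carrier protein C had 565 ± 17.6 CPM at 8% sucrose and 3654 ± 76.6 CPM at 3% sucrose. The log2 fold change of the hit was -2.69, or -3.04 on the scaling of the cluster table.

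The second hexose symporter in abundance was sugar transport protein 13 (STP13), which in Arabidopsis is a high-affinity hexose importer. Its leading cluster (Cluster-2051.59030) had 253, 209 and 153 CPM at 8% sucrose, against 323, 319 and 327 CPM at 3% sucrose. The libraries at 8% sucrose spread widely but all lie below those at 3% sucrose. It fell by 0.66 on the log2 scale with an adjusted p of 0.0146 (edgeR), but on the scaling of the hit table the change was -0.31 with an adjusted p of 0.152. A smaller cluster of the same hit (Cluster-2051.88853) went the other way, with 26.4, 25.3 and 20.6 CPM at 8% sucrose, against 10.3, 12.2 and 12.5 CPM at 3% sucrose, and rose by 1.05 on the log2 scale. The hit as a whole had 409, 338 and 265 CPM at 8% sucrose, against 367, 351 and 371 CPM at 3% sucrose. The groups overlap, and its log2 fold change of -0.11 did not pass the test (edgeR adjusted p = 0.484). The hit was called lower without replicate 1 at 8% sucrose (-0.27) and on the scaling of the cluster table (-0.46, adjusted p = 0.0123).

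STP14, a galactose importer in Arabidopsis, was lower. Its leading cluster (Cluster-2051.59569) had 45.0, 50.4 and 39.0 CPM at 8% sucrose, against 98.6, 101 and 99.2 CPM at 3% sucrose. The groups do not overlap, and it fell by 1.15 on the log2 scale (edgeR adjusted p = 0.000104). The STP14 hit had 65.1 ± 5.11 CPM at 8% sucrose and 106 ± 0.847 CPM at 3% sucrose (SD, n = 3 each). Sugar carrier protein A, another castor bean carrier, had 6.64 ± 0.141 CPM at 8% sucrose and 5.31 ± 0.558 CPM at 3% sucrose, and its log2 fold change of 0.32 did not pass the test (edgeR adjusted p = 0.0513), passed it with a stricter filter on counts (0.36) and was -0.03 on the scaling of the cluster table. Hexose carrier protein HEX6 completed the hits that fell, with 2.46 ± 0.263 CPM at 8% sucrose and 6.57 ± 0.628 CPM at 3% sucrose. Of 22 hexose symporter clusters 13 were tested, of which 4 rose (30.8%) and 6 fell (46.2%), against 29.1% and 25.6% of all tested clusters. The 4 that rose were minor clusters of STP13 (Cluster-2051.88853 and Cluster-2051.81513) and STP14 (Cluster-2051.49599 and Cluster-2051.59568), and leaving out replicate 3 at 8% sucrose or replicate 1 at 3% sucrose gave 2 such calls in the family. The number that fell was 3 when the scaling of the hit table was used.

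Sucrose symporters take up sucrose itself, and they moved the other way. The summed level of the SUC/SUT family was 356 ± 27.4 CPM at 8% sucrose and 241 ± 9.91 CPM at 3% sucrose (SD, n = 3 each), a ratio of 1.48. Of 30 clusters 20 were tested, of which 9 rose (45%), 1 fell (5%) and 10 were not called, where 29.1% of all tested clusters rose and 25.6% fell. All 5 hits rose in the test of hits. The median log2 fold change of the tested clusters was 1.32, against 0.19 for all tested clusters. Without replicate 1 at 8% sucrose 2 clusters fell, and 14 rose on the scaling of the hit table.

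The SUC/SUT hit with the most counts was the spinach plasma membrane sucrose transport protein, with 342, 316 and 275 CPM at 8% sucrose, against 178, 184 and 172 CPM at 3% sucrose. The groups do not overlap. The hit rose by a log2 fold change of 0.80 ± 0.08 (SE; edgeR adjusted p = 2.07e-05), or 0.45 on the scaling of the cluster table. Its main clusters exchanged rank between the media. Cluster-2051.80376 had 176, 146 and 128 CPM at 8% sucrose, against 56.3, 46.2 and 52.2 CPM at 3% sucrose. Cluster-2051.80375 had 39.0, 50.6 and 47.4 CPM at 8% sucrose, against 102, 121 and 101 CPM at 3% sucrose. Neither pair of groups overlaps, and the changes have opposite signs, 1.54 ± 0.13 (SE) for the first and -1.24 ± 0.12 (SE) for the second.

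As a share of the counts of their hit, Cluster-2051.80376 held 64.9% ± 4.28 at 8% sucrose and 30.7% ± 4.03 at 3% sucrose, and Cluster-2051.80375 held 20.1% ± 4.22 at 8% sucrose and 64.1% ± 3.78 at 3% sucrose (SD, n = 3 each). These shares do not depend on the library scaling. Both clusters have a longest coding stretch of 536 codons and the same best NR hit, a sugar beet protein. Whether they are gene copies, alleles or transcript forms was not tested, and reads of near-identical sequences can be assigned to either, so the change of each single cluster is uncertain, whereas the sum over the hit does not depend on that assignment. The cluster with the largest rise in the family, Cluster-2051.78301, had 2.61, 2.71 and 2.64 CPM at 8% sucrose, against 0.353, 0.0523 and 0.165 CPM at 3% sucrose. Its log2 fold change was 3.80, and 4.54 without replicate 1 at 3% sucrose.

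**Figure D3:**
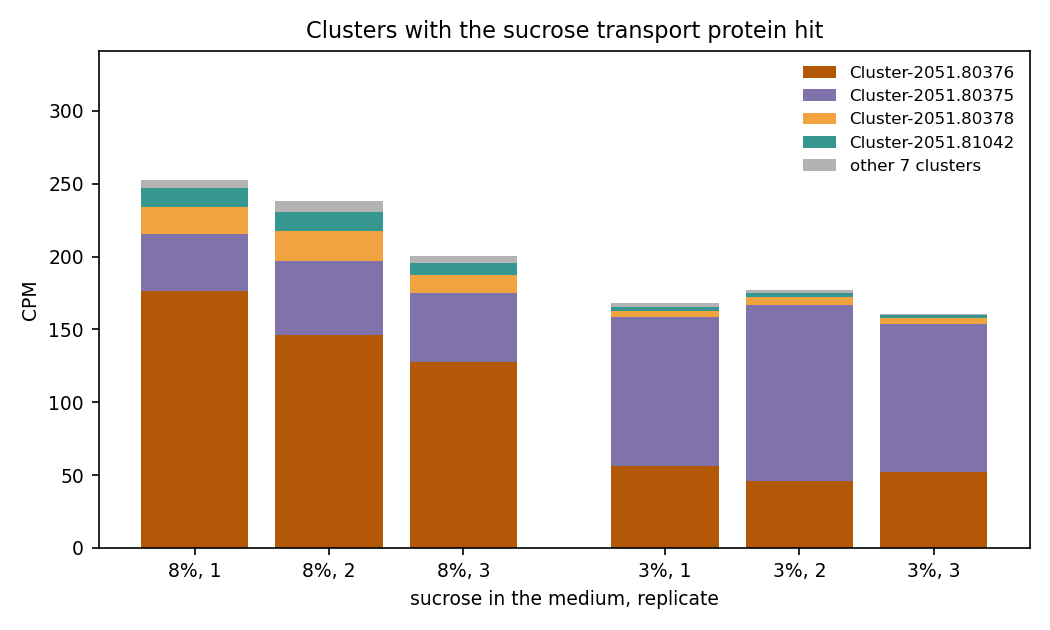
CPM of the clusters that share the spinach sucrose transport protein hit, stacked per library (vertical axis from 0), with the 3 libraries at 8% sucrose on the left and the 3 at 3% sucrose on the right. The orange-brown segment (Cluster-2051.80376) is the largest at 8% sucrose and the purple one (Cluster-2051.80375) the largest at 3% sucrose.

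SUC4, the sucrose symporter of the tonoplast in Arabidopsis, had 35.3, 38.8 and 38.7 CPM in its leading cluster (Cluster-2051.96600) at 8% sucrose, against 13.9, 14.4 and 15.3 CPM at 3% sucrose. The groups lie wide apart, and this cluster rose by 1.37 on the log2 scale. Summed over the hit, SUC4 had 84.0 ± 1.15 CPM at 8% sucrose and 34.7 ± 1.87 CPM at 3% sucrose, a log2 fold change of 1.27 ± 0.05 (SE; edgeR adjusted p = 9.06e-08). The SUC4 hit gave 0.92 on the scaling of the cluster table. SUC3, a plasma membrane sucrose symporter, had 84.0 ± 2.08 CPM over its hit at 8% sucrose and 41.2 ± 2.90 CPM at 3% sucrose, a log2 fold change of 1.03 ± 0.06 (SE; edgeR adjusted p = 7.28e-07).

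On the scaling of the cluster table the log2 fold change of the SUC3 hit was 0.67. The leading SUC3 cluster (Cluster-2051.117052) had 21.5, 26.2 and 26.9 CPM at 8% sucrose, against 16.4, 18.8 and 12.04 CPM at 3% sucrose. Its log2 fold change of 0.66 had an adjusted p of 0.0187 (edgeR), which became 0.0639 or 0.0621 when replicate 2 or 3 at 8% sucrose was left out, and 0.0689 or 0.0511 when replicate 1 or 3 at 3% sucrose was left out. SUC2, the phloem loader of Arabidopsis, was scarce, with 1.19, 1.23 and 1.27 CPM over its hit at 8% sucrose, against 0.0938, 0.0815 and 0 CPM at 3% sucrose. Rice SUT4, counted at the tonoplast here by its name alone, was scarcer still at 8% sucrose. Its hit had 0.735, 0.399 and 0.921 CPM at 8% sucrose, against 0.0938, 0.244 and 0.235 CPM at 3% sucrose. Both passed the test (edgeR adjusted p = 0.000315 for SUC2 and 0.0145 for SUT4), on few reads. The SUT4 hit is a single cluster (Cluster-2051.118687), which was not called in the test of clusters (log2 fold change 1.46).

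SWEET transcripts were dominated by a hit to rice SWEET14, a plasma membrane sucrose uniporter. The family's summed level was 319 ± 7.29 CPM at 8% sucrose and 744 ± 32.7 CPM at 3% sucrose (SD, n = 3 each), a ratio of 0.429. The leading cluster (Cluster-2051.80217) had 298, 313 and 300 CPM at 8% sucrose, against 659, 704 and 643 CPM at 3% sucrose, and it held 91.5% of the family's counts. The groups do not overlap, and the log2 fold change was -1.14 ± 0.05 (SE; edgeR adjusted p = 6.18e-06). Per kilobase it ranked second among the members, at 180 CPM per kb at 8% sucrose and 397 CPM per kb at 3% sucrose. The distance to sugar carrier protein C was smaller at 8% sucrose (213 CPM per kb) than at 3% sucrose (1765 CPM per kb).

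Both other named SWEET14 clusters were close to 0 at 8% sucrose. Cluster-2051.50913 had 0.751, 0.902 and 0.491 CPM at 8% sucrose, against 38.6, 40.97 and 41.5 CPM at 3% sucrose, a log2 fold change of -5.82 ± 0.20 (SE; edgeR adjusted p = 2.22e-06). Cluster-2051.8180 had 0.673, 0.109 and 0.414 CPM at 8% sucrose, against 9.44, 11.4 and 11.9 CPM at 3% sucrose. Its log2 fold change was -4.75, and -5.35 without replicate 1 at 8% sucrose. Over the whole SWEET14 hit the level was 416 ± 5.39 CPM at 8% sucrose and 767 ± 20.9 CPM at 3% sucrose. The log2 fold change of the hit was -0.88, or -1.23 on the scaling of the cluster table. These hit CPM cannot be set beside the family sum, which is on the scaling of the cluster table.

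SWEET17, a fructose uniporter of the Arabidopsis tonoplast, fell as a hit, with 2.48, 3.48 and 3.22 CPM at 8% sucrose, against 11.6, 13.5 and 12.5 CPM at 3% sucrose (log2 fold change -2.03; edgeR adjusted p = 3.22e-06). Its leading cluster (Cluster-2051.8729) had 0.207, 0.219 and 0.284 CPM at 8% sucrose, against 7.35, 9.14 and 7.38 CPM at 3% sucrose, and its share of the hit's counts was 10.5% ± 2.02 at 8% sucrose and 67.1% ± 3.71 at 3% sucrose. The SWEET7b hit was at 0 in every library at 8% sucrose and at 1.03, 0.950 and 0.881 CPM at 3% sucrose, which is at least 8.94-fold lower against the level of 3 counts per library. Such floors cover counting error only. The SWEET1 hit also fell, with 0, 0.0363 and 0.248 CPM at 8% sucrose, against 0.719, 0.842 and 0.705 CPM at 3% sucrose.

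SWEET2, a glucose uniporter of the tonoplast in Arabidopsis, was the SWEET hit that rose. It had 11.3, 9.68 and 9.38 CPM at 8% sucrose, against 5.10, 5.54 and 5.05 CPM at 3% sucrose, a log2 fold change of 0.95 ± 0.12 (SE; edgeR adjusted p = 0.000108). The change was 0.60 on the scaling of the cluster table. The groups do not overlap. Cluster-14799.0, the leading cluster of the SWEET2 hit, and Cluster-20832.0 were not called, with log2 fold changes of -0.97 and -0.85. Cluster-15981.0 of this hit had 2.69, 2.16 and 2.56 CPM at 8% sucrose and a single read at 3% sucrose, in replicate 1, and its log2 fold change was 7.61, or 9.52 without that library. Of 31 SWEET clusters 16 were tested, of which 2 rose, both of the SWEET2 hit (Cluster-15981.0 and Cluster-2051.25255), and 7 fell. Thus 12.5% rose and 43.8% fell, against 29.1% and 25.6% of all tested clusters. Leaving out replicate 2 at 8% sucrose gave 4 that rose, as did leaving out replicate 1 or 2 at 3% sucrose, and leaving out replicate 3 at 3% sucrose gave 5. With a stricter filter on counts 1 rose and 4 fell.

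**Figure D4:**
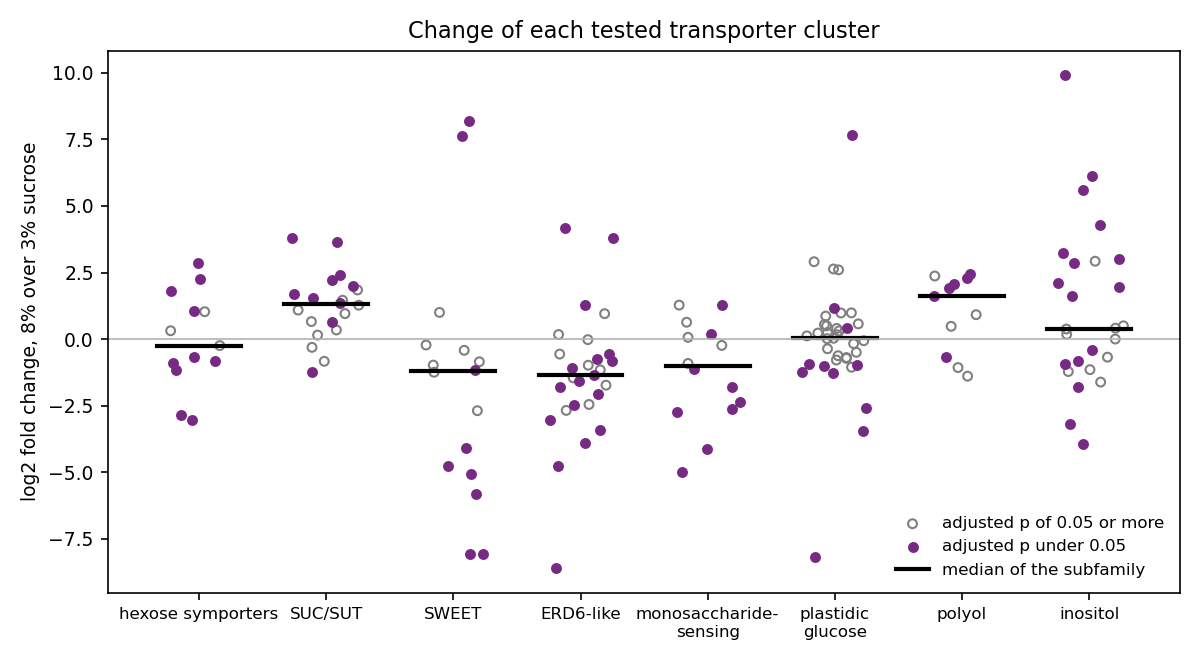
Log2 fold change (8% over 3% sucrose, vertical axis) of each of the 164 tested clusters by family, with filled points for those past the test, open points for the others and a black line at the family's median. The medians lie at 1.32 for SUC/SUT and 1.64 for polyol transporters, and at -1.35 for ERD6-like and -1.19 for SWEET proteins, and each family holds points on both sides of 0.

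ERD6-like transporters, named after an Arabidopsis gene that responds early to dehydration, were lower in each of their 4 tested hits. Their summed level was 128 ± 4.36 CPM at 8% sucrose and 451 ± 13.2 CPM at 3% sucrose (SD, n = 3 each), a ratio of 0.284. Of 54 clusters 27 were tested, of which 14 fell (51.9%), 3 rose (11.1%) and 10 were not called, and 5 rose without replicate 1 at 8% sucrose. Among all tested clusters 25.6% fell and 29.1% rose. The 3 that rose (Cluster-2051.60234, Cluster-2051.17033 and Cluster-2051.25928) had under 4 CPM in every library. Cluster-2051.60234, the one of these with the smallest adjusted p, had 0.751, 0.984 and 0.698 CPM at 8% sucrose, against 0.0882, 0.0784 and 0 CPM at 3% sucrose, with a log2 fold change of 3.79, or 3.16 without replicate 3 at 3% sucrose.

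ERD6-like 16 changed most among the abundant members of this family. Its leading cluster (Cluster-2051.93085) had 18.5, 19.7 and 17.8 CPM at 8% sucrose, against 195, 211 and 190 CPM at 3% sucrose, a log2 fold change of -3.41 ± 0.07 (SE; edgeR adjusted p = 5.80e-07). The groups differ by an order of magnitude, and the hit as a whole gave -2.86, or -3.21 on the scaling of the cluster table. ERD6-like 7 had 14.1, 16.0 and 15.2 CPM in its leading cluster (Cluster-2051.29057) at 8% sucrose, against 62.6, 63.8 and 61.2 CPM at 3% sucrose, and its hit fell by 1.22 on the log2 scale.

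ERD6-like 6 is known in Arabidopsis as an exporter of glucose from the vacuole. Its leading cluster (Cluster-2051.96569) had 40.8, 46.7 and 49.2 CPM at 8% sucrose, against 94.1, 101 and 92.6 CPM at 3% sucrose, and it fell by 1.08 on the log2 scale. A second cluster (Cluster-2051.56557) fell by 0.83 on the log2 scale, with 13.2 ± 0.407 CPM at 8% sucrose and 23.3 ± 1.95 CPM at 3% sucrose. The ERD6-like 6 hit had 86.5 ± 6.31 CPM at 8% sucrose and 145 ± 1.73 CPM at 3% sucrose, and the ERD6-like 5 hit 21.1 ± 1.67 CPM at 8% sucrose and 32.1 ± 0.866 CPM at 3% sucrose. The changes of these hits, -0.75 and -0.61 on the log2 scale, were smaller than those of ERD6-like 16 and ERD6-like 7, and all 4 hits passed the test.

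Monosaccharide-sensing protein 2 is a tonoplast antiporter that loads hexoses into the vacuole, and it was the single hit of its family, with 25 clusters. The hit had 112 ± 1.04 CPM at 8% sucrose and 135 ± 3.80 CPM at 3% sucrose (SD, n = 3 each), a log2 fold change of -0.28 ± 0.04 (SE; edgeR adjusted p = 0.000374). Its clusters divided. The leading one (Cluster-2051.85638) had 51.9, 50.5 and 46.0 CPM at 8% sucrose, against 40.9, 44.3 and 43.1 CPM at 3% sucrose, while Cluster-2051.591 had 4.48, 6.397 and 6.39 CPM at 8% sucrose, against 32.6, 38.2 and 34.6 CPM at 3% sucrose. Cluster-2051.591 fell by 2.61 on the log2 scale (edgeR adjusted p = 2.41e-05). Cluster-2051.85638 passed the test narrowly (log2 fold change 0.21, edgeR adjusted p = 0.0407).

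Among other settings, that call of Cluster-2051.85638 was lost without replicate 1 (0.18) or 2 (0.19) at 8% sucrose, without replicate 1 (0.13), 2 (0.20) or 3 (0.14) at 3% sucrose, with DESeq2 size factors (0.15), in the DESeq2 test and with no filter on counts (0.19). Its share of the hit's counts was 59.8% ± 3.27 at 8% sucrose and 33.4% ± 0.977 at 3% sucrose, which does not depend on the scaling. Cluster-2051.32731 had 0, 0 and 0.466 CPM at 8% sucrose, against 7.06, 3.61 and 4.66 CPM at 3% sucrose, so that all of its reads at 8% sucrose came from replicate 3. Its log2 fold change was -5.00, and -10.55 without that library. Of 14 tested clusters 2 rose (Cluster-2051.85638 and Cluster-2051.85636) and 7 fell, or 14.3% and 50%, against 29.1% and 25.6% of all tested clusters. Without replicate 1 at 3% sucrose 4 rose, without replicate 2 at 3% sucrose 4 fell, and 4 also fell on the scaling of the hit table.

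**Figure D5:**
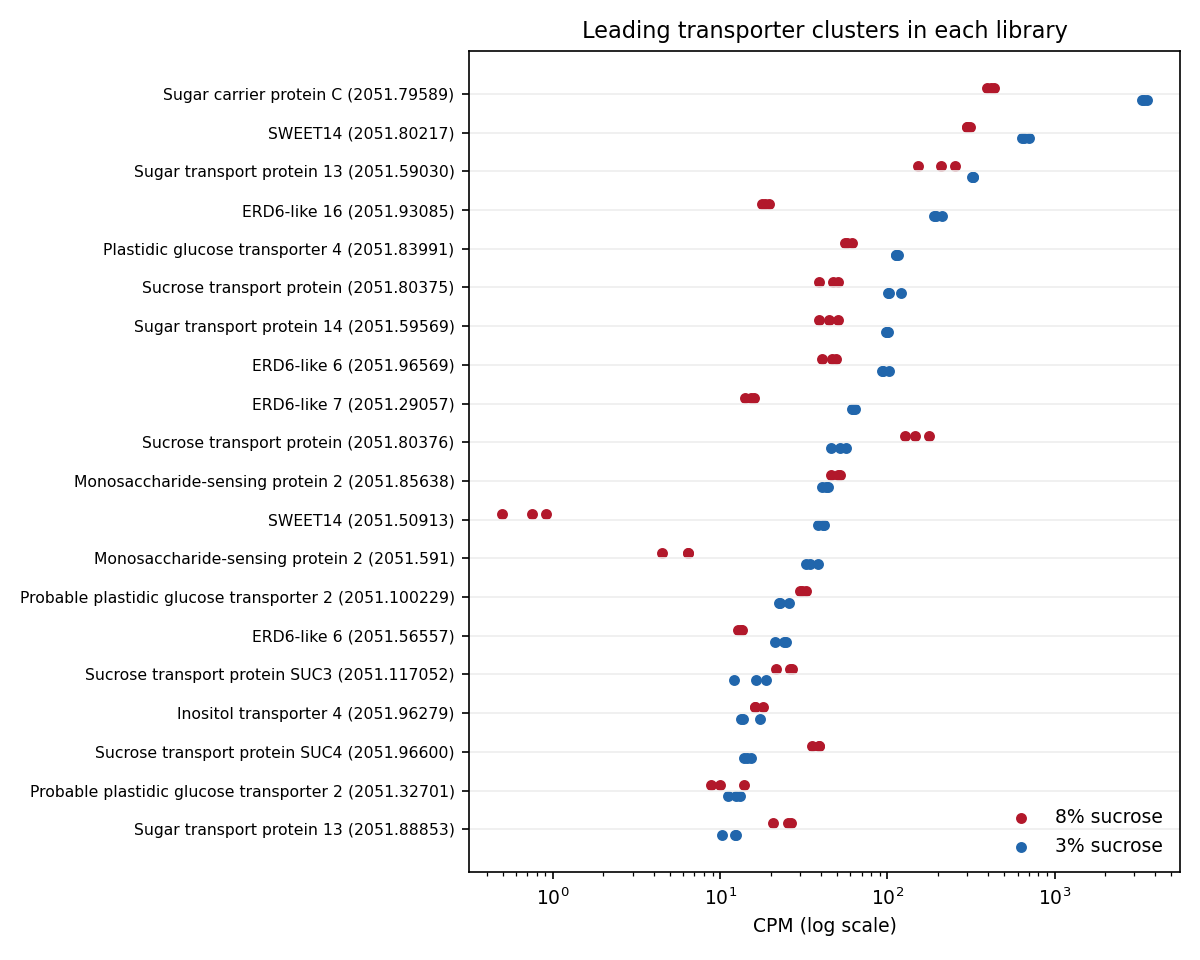
CPM (horizontal axis, log scale) of the most abundant named clusters in each library, with 8% sucrose in red just above 3% sucrose in blue. Clusters are ordered by the mean at 3% sucrose, and the 3 points of a medium lie close together for most of them, with a wider spread at 8% sucrose for SWEET14 (Cluster-2051.50913) and sugar transport protein 13 (Cluster-2051.59030).

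Plastidic glucose transporters move glucose across the plastid envelope, for example glucose freed from starch. Their summed level was 164 ± 2.10 CPM at 8% sucrose and 224 ± 4.66 CPM at 3% sucrose (SD, n = 3 each), a ratio of 0.732. Plastidic glucose transporter 4, the exporter best known from Arabidopsis, had 57.3, 61.1 and 55.6 CPM in its leading cluster (Cluster-2051.83991) at 8% sucrose, against 112, 116 and 113 CPM at 3% sucrose. The groups do not overlap. This cluster fell by 0.97 on the log2 scale (edgeR adjusted p = 2.04e-05), and the hit had 101 ± 3.46 CPM at 8% sucrose and 146 ± 1.94 CPM at 3% sucrose. A second cluster of this hit (Cluster-2051.66538) did not pass the test (log2 fold change -1.05), but did, among other settings, without replicate 2 at 8% sucrose (-1.46), without replicate 1 at 3% sucrose (-1.36) and in the DESeq2 test (-1.11).

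The 3 probable plastidic glucose transporters, whose place in the plastid envelope is taken from their names, did not fall. As hits, probable plastidic glucose transporter 1 had 15.2 ± 1.83 CPM at 8% sucrose and 9.68 ± 1.02 CPM at 3% sucrose, and probable plastidic glucose transporter 3 had 15.4 ± 1.54 CPM at 8% sucrose and 8.96 ± 0.733 CPM at 3% sucrose. Both rose, by log2 fold changes of 0.65 and 0.79, and both kept that direction and the call on the scaling of the cluster table (0.30 and 0.43). Their leading clusters were not called, at -0.69 for transporter 1 and -0.06 for transporter 3. For transporter 1, 2 clusters rose and 0 fell, and for transporter 3, 0 rose and 1 fell. An untested cluster (Cluster-2051.26136) held 21.6% ± 24.9 (SD) of the transporter 3 counts at 8% sucrose, so its share was uneven between libraries. Probable plastidic glucose transporter 2 rose as a hit, by a log2 fold change of 0.31 with 89.4 ± 3.47 CPM at 8% sucrose and 72.1 ± 0.579 CPM at 3% sucrose, but on the scaling of the cluster table the change was -0.04. Its leading cluster (Cluster-2051.100229) had 32.6, 30.2 and 30.9 CPM at 8% sucrose, against 22.8, 25.7 and 22.5 CPM at 3% sucrose, a rise of 0.40 on the log2 scale that lost its call without replicate 1 (0.32) or without replicate 3 (0.29) at 3% sucrose. Of 65 plastidic clusters 37 were tested, of which 8 fell, 3 rose (Cluster-2051.100229, Cluster-2051.735 and Cluster-2051.16876) and 26 were not called. The share called was 29.7%, below the 54.6% of all tested clusters. The number that rose was 5 on the scaling of the hit table. Cluster-2051.735 was at 0 in every library at 3% sucrose and at 0.802, 0.601 and 0.647 CPM at 8% sucrose, at least 8.24-fold higher against the level of 3 counts per library.

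Polyol transporters are proton symporters for sugar alcohols such as sorbitol and mannitol, and some also accept hexoses. They had the lowest summed level of the 8 families, with 41.4 ± 4.76 CPM at 8% sucrose and 21.9 ± 2.10 CPM at 3% sucrose (SD, n = 3 each), a ratio of 1.89. Polyol transporter 5, a broad-range symporter of the Arabidopsis plasma membrane, had 18.04, 15.6 and 12.7 CPM in its leading cluster (Cluster-2051.73564) at 8% sucrose, against 2.21, 2.80 and 6.14 CPM at 3% sucrose. The groups do not overlap although replicate 3 at 3% sucrose was higher than the other 2 libraries of that medium. The cluster rose by 2.05 ± 0.39 (SE) on the log2 scale (edgeR adjusted p = 0.00427). The hit rose by 2.22 ± 0.27 (SE), or by 1.88 on the scaling of the cluster table.

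Probable polyol transporter 4 had 33.3 ± 2.34 CPM over its hit at 8% sucrose and 18.1 ± 1.58 CPM at 3% sucrose. The hit rose by a log2 fold change of 0.88 (edgeR adjusted p = 1.96e-05), or 0.53 on the scaling of the cluster table. Its clusters went both ways. Cluster-23172.1 had 8.00, 8.39 and 6.49 CPM at 8% sucrose, against 2.77, 2.46 and 2.14 CPM at 3% sucrose, and Cluster-2051.47291 had 2.66 ± 0.0872 CPM at 8% sucrose and 0.486 ± 0.0412 CPM at 3% sucrose. Cluster-2051.15474 fell instead, with 5.98, 6.29 and 5.12 CPM at 8% sucrose, against 9.59, 8.49 and 9.24 CPM at 3% sucrose (log2 fold change -0.65, edgeR adjusted p = 0.00658), a call that was lost on the scaling of the hit table (-0.30, adjusted p = 0.0974). Of 19 polyol transporter clusters 11 were tested, of which 5 rose (Cluster-2051.73564, Cluster-23172.1, Cluster-2051.47291, Cluster-2051.47290 and Cluster-2051.40404), 1 fell and 5 were not called. In percent, 45.5% rose and 9.09% fell, against 29.1% and 25.6% of all tested clusters. Without replicate 1 or without replicate 3 at 8% sucrose 2 fell, and none fell on the scaling of the hit table.

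Inositol transporters carry myo-inositol, the precursor of galactinol, phytate and cell wall sugars, with INT4 at the plasma membrane and INT1 at the tonoplast in Arabidopsis. The family summed to 95.4 ± 0.938 CPM at 8% sucrose and 74.6 ± 3.15 CPM at 3% sucrose (SD, n = 3 each), a ratio of 1.28. The INT1 hit had 83.7, 83.02 and 84.7 CPM at 8% sucrose, against 48.7, 51.8 and 52.8 CPM at 3% sucrose, and rose by 0.71 ± 0.05 (SE) on the log2 scale. The INT4 hit had 43.9, 44.2 and 43.3 CPM at 8% sucrose, against 26.2, 27.3 and 28.2 CPM at 3% sucrose, and rose by 0.68 ± 0.05 (SE). The groups lie apart for both hits (edgeR adjusted p = 1.61e-06 for INT1 and 3.73e-06 for INT4). On the scaling of the cluster table the rises were 0.36 for INT1 and 0.33 for INT4, and both kept the call. The CPM of these hits cannot be set beside the family sum, which is on the scaling of the cluster table. Probable inositol transporter 2, with 1.13 ± 0.483 CPM at 8% sucrose and 0.556 ± 0.109 CPM at 3% sucrose, did not pass the test (edgeR adjusted p = 0.0601) but did without replicate 2 at 8% sucrose, with a log2 fold change of 1.31.

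The INT1 hit had 29 clusters, of which 9 rose and 6 fell. Among those that rose, Cluster-2051.27686 had 9.40, 11.6 and 8.77 CPM at 8% sucrose, against 0.794, 1.65 and 1.23 CPM at 3% sucrose, and Cluster-2051.119809 had 8.49, 5.28 and 5.95 CPM at 8% sucrose, against 0.530, 0.131 and 0.356 CPM at 3% sucrose. Cluster-2051.39470 had 5.22 ± 0.434 CPM at 8% sucrose and 0.722 ± 0.118 CPM at 3% sucrose. Cluster-2051.35435 was at 0 in every library at 3% sucrose and at 4.14, 2.05 and 3.44 CPM at 8% sucrose, at least 38.7-fold higher against the level of 3 counts per library. Cluster-2051.18132 fell, with 1.87 ± 0.271 CPM at 8% sucrose and 6.59 ± 1.39 CPM at 3% sucrose. These 5 clusters are ones with large changes among those called. A further 5 clusters of this hit did not pass the test, and 9 could not be tested.

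The leading INT1 cluster per kilobase (Cluster-2051.95413) had 7.69, 8.04 and 7.89 CPM at 8% sucrose, against 8.97, 10.4 and 12.1 CPM at 3% sucrose. Its log2 fold change of -0.41 passed narrowly (edgeR adjusted p = 0.0417), and the call was lost, among other settings, without any 1 library other than replicate 1 at 3% sucrose (-0.46 to -0.37, adjusted p 0.0634 to 0.0985), on the scaling of the hit table (-0.06), with no scaling factor (-0.26) and with either other filter on counts. The leading INT4 clusters, Cluster-2051.96279 (16.7 ± 1.08 CPM at 8% sucrose and 14.7 ± 2.12 CPM at 3% sucrose) and Cluster-2051.96276 (8.90 ± 2.04 CPM at 8% sucrose and 8.88 ± 1.62 CPM at 3% sucrose), did not pass the test, although Cluster-2051.96279 did on the scaling of the hit table, with a log2 fold change of 0.53. Of 39 inositol transporter clusters 26 were tested, of which 10 rose (38.5%), 6 fell (23.1%) and 10 were not called. The share called was 61.5%, near the 54.6% of all tested clusters. Without replicate 1 at 8% sucrose or without replicate 3 at 3% sucrose 3 fell.

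Grouped by the membrane taken as usual for the plant proteins of each hit or its family, the 84 plasma membrane clusters had 51 tested, of which 18 rose (35.3%) and 11 fell (21.6%), where 29.1% of all tested clusters rose and 25.6% fell. The 131 tonoplast clusters had 75 tested, of which 17 rose (22.7%) and 30 fell (40.0%). The 65 plastid envelope clusters had 37 tested, of which 3 rose (8.11%) and 8 fell (21.6%), and 5 clusters with scarce SWEET hits were assigned to no membrane. The ratio of summed levels was 0.286 at the plasma membrane, where sugar carrier protein C dominates, 0.510 at the tonoplast and 0.732 at the plastid envelope. At the plasma membrane the median log2 fold change had the other sign, 0.66, as it did at the plastid envelope, where it was 0.03. Hits called in both directions were found at each of the 3 membranes, 6 higher and 5 lower at the plasma membrane, 4 higher and 6 lower at the tonoplast and 3 higher and 1 lower at the plastid envelope, of 14, 10 and 4 tested, where 39.9% of all tested hits rose and 39.7% fell. The SUC/SUT hits rose at the plasma membrane and at the tonoplast alike. Membranes were assigned by hit name and not checked further. This leaves the place of rice SUT4, counted at the tonoplast, and of the 3 probable plastidic glucose transporters uncertain.

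The transporters work beside enzymes and proton pumps that were followed as 8 further lists, on the cluster scaling and against the same background of 29.1% higher and 25.6% lower. Acid invertases, which split sucrose in the cell wall and vacuole, had 8 tested clusters, of which 3 rose and 5 fell, with a median log2 fold change of -1.57. The soluble isoenzyme I cluster (Cluster-2051.10188) had 1.54 ± 0.464 CPM at 8% sucrose and 91.3 ± 4.80 CPM at 3% sucrose. A cell wall isozyme cluster (Cluster-2051.58182) had 5.54 ± 0.497 CPM at 8% sucrose and 0.495 ± 0.0537 CPM at 3% sucrose. Alkaline/neutral invertases, the cytosolic and organellar type, had 19 tested clusters, of which 8 rose and 3 fell (median log2 fold change 0.79), among them CINV2 (Cluster-2051.69828) with 112 ± 4.82 CPM at 8% sucrose and 87.2 ± 3.83 CPM at 3% sucrose.

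Sucrose synthases, which split sucrose into UDP-glucose and fructose, had 15 tested clusters, of which 4 rose and 5 fell, with a median log2 fold change of -0.01. Their leading clusters moved apart, Cluster-2051.79574 with 370 ± 22.7 CPM at 8% sucrose and 1153 ± 37.1 CPM at 3% sucrose, and Cluster-2051.76798 with 328 CPM at 8% sucrose and 35.6 CPM at 3% sucrose. Hexose kinases had 58 tested clusters, of which 20 rose and 11 fell, with a median log2 fold change of 1.29. Their summed level went against that median, with 471 ± 3.97 CPM at 8% sucrose and 684 ± 3.97 CPM at 3% sucrose, and hexokinase-1 (Cluster-2051.57700) had 34.1 ± 2.41 CPM at 8% sucrose and 198 ± 6.56 CPM at 3% sucrose.

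Plasma membrane proton pumps, which power the symporters, had 31 tested clusters, of which 11 rose and 6 fell. Plasma membrane ATPase 1 (Cluster-2051.91141) had 31.7 ± 4.19 CPM at 8% sucrose and 508 ± 40.2 CPM at 3% sucrose, while ATPase 11 (Cluster-2051.83359) had 92.3 ± 4.01 CPM at 8% sucrose and 1.66 ± 0.175 CPM at 3% sucrose. The median log2 fold change was 0.55 but their sum was 821 ± 16.4 CPM at 8% sucrose and 1304 ± 93.7 CPM at 3% sucrose. Vacuolar proton pumps had 106 tested clusters, of which 14 rose and 58 fell (median log2 fold change -1.10), and their sum was 2821 ± 110 CPM at 8% sucrose and 6582 ± 186 CPM at 3% sucrose. A subunit B1 cluster of the V-type ATPase (Cluster-2051.44610) had 13.0 CPM at 8% sucrose and 601 CPM at 3% sucrose.

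Plastid phosphate translocators had 64 tested clusters, of which 16 rose and 20 fell, with a median log2 fold change of -0.27. Polyol and inositol enzymes had 26 tested clusters, of which 9 rose and 15 fell, with a median log2 fold change of -1.59. Among them inositol-3-phosphate synthase (Cluster-2051.65728), which makes inositol, had 261 ± 9.30 CPM at 8% sucrose and 174 ± 8.54 CPM at 3% sucrose, and inositol oxygenase 1 (Cluster-2051.123749), which breaks it down, had 9.57 ± 0.512 CPM at 8% sucrose and 316 ± 11.4 CPM at 3% sucrose. A probable mannitol dehydrogenase cluster (Cluster-2051.71569) had 127 ± 5.48 CPM at 8% sucrose and 39.3 ± 1.36 CPM at 3% sucrose. This synthase cluster was higher at 8% sucrose and this oxygenase cluster lower, each past the test. Sums over a hit are not given for these lists.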

How the data were processed

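RNA of 6 libraries was sequenced as read pairs, per the labels' protocols. Reads were handled with Trimmomatic 0.36, FastQC, RSEM and Bowtie2, per the submitters' processing notes. No source used here gives the assembler or the authors' differential test. The authors deposited 1 table with an expected count per cluster and library (45.4% of the values are not whole) and FPKM, per the file headers, which was not used. The deposited log2 ratio and q-value served only to count the authors' calls. Cluster length and protein hits are other deposited values. No sequences were in the sources used here.

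Members were found by transporter names in the Swiss-Prot description. Members and lists were chosen with earlier results of these data known. Expected counts were rounded and filtered with filterByExpr, which left 85038 clusters holding 99.29% of the counts. The media were compared in edgeR 4.0.16 under R 4.3.3 by its quasi-likelihood test (TMM, no covariate, Benjamini-Hochberg threshold 0.05), and again on counts summed by Swiss-Prot entry (13187 tested). The common biological coefficient of variation was 41.4% for clusters and 10.7% for hits. A count of 0 was set against 3 counts per library, which is 0.0776 to 0.0820 CPM at 8% sucrose and 0.0784 to 0.0882 CPM at 3% sucrose on the cluster scaling. The SE is the log2 fold change divided by the root of the F statistic. Replicate libraries differed by more than sampling noise (chi-square per cluster 7.70 to 14.9), so each counted once.

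Named clusters were, per family, the 4 with the highest mean CPM per kb (mean CPM at least 1), the rise and the fall with the smallest adjusted p, and over all members the 3 largest rises and falls with at least 50 mean counts. Named hits were the 4 most abundant per family. Clusters and hits outside this rule (of HEX6, SUT4, SWEET1 and the small counts listed by name) were chosen after their values were seen. In related lists the most abundant cluster and the strongest call in each direction were eligible. Alternatives were DESeq2 1.42.0 and its size factors, no or a stricter filter (50 counts), no scaling factor, a replicate block and leaving out each library. The scaling of the other table, the 2-fold threshold and leaving out the leading cluster were chosen after seeing the data. Tests were tested on simulated counts with set changes. With 200 changed features, 7% of 2-fold and 17% of 4-fold changes were recovered for clusters, and 83% and 92% for hits. With 21258 clusters changed at each fold 36.0% and 70.1% were recovered, and with 3296 hits at each fold 88.2% and 96.4%. A cluster that was not called may therefore have changed. Figures were drawn with matplotlib 3.10.9.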

Additional observations from a re-analysis of the deposited data

How the results depend on the processing

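The counts of transporter clusters and hits that rose or fell stayed within 1.5 times of the reported ones in all alternatives run. Leaving out 1 library at a time gave 38 to 42 clusters higher and 42 to 55 lower, 12 to 15 hits higher and 13 to 14 lower, and 77 to 95 related clusters higher and 114 to 123 lower. The other alternatives gave 32 to 50 clusters higher and 36 to 54 lower. The DESeq2 test gave 39 higher and 53 lower. Of 80 named changes called, 72 kept their direction and call in every alternative in which they were tested. Another 7 lost the call in at least 1, and 1 reversed, the hit of probable plastidic glucose transporter 2 (-0.040 on the scaling of the cluster table). Some scarce ones were not tested with the stricter filter on counts.

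Family sums moved with the scaling and kept their direction. With no scaling factor the ratios of 8% over 3% sucrose were 0.367 for all members, 0.206 for hexose symporters, 1.65 for SUC/SUT, 0.478 for SWEET, 0.315 for ERD6-like, 0.720 for monosaccharide-sensing, 0.814 for plastidic glucose and 1.42 for inositol transporters. With the scaling of the hit table they were, in that order, 0.421, 0.236, 1.89, 0.548, 0.362, 0.826, 0.934 and 1.63, and 2.41 for polyol transporters. DESeq2 size factors gave 0.704 for plastidic glucose transporters, and leaving out the most abundant cluster gave 0.638 for all members. Which scaling is closer to RNA per cell was not tested.

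Equal replicate numbers did not pair the samples. The deviations of same-numbered libraries from their group means correlated with r of 0.031, 0.004 and 0.013 across clusters, and not every library correlated best with its own number. With the replicate block 34 clusters rose and 43 fell, 13 hits rose and 13 fell, and 73 related clusters rose and 109 fell. Of the named changes, the block ended the calls of Cluster-2051.95413 (adjusted p = 0.0715, edgeR) and Cluster-2051.85638 (0.0730) and added that of Cluster-2051.66538 (log2 fold change -1.10, adjusted p = 0.0179). It gave 2 hexose symporter clusters higher, 1 monosaccharide-sensing cluster higher and 3 inositol transporter clusters lower.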

Other observations

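Of the 9 hits too scarce to test, SWEET7 was at 0 in every library at 3% sucrose and had 0.490, 0.254 and 0.425 CPM at 8% sucrose, and SWEET3b had 0.735, 0.254 and 0.531 CPM at 8% sucrose, against 0.250, 0.217 and 0 CPM at 3% sucrose. ERD6-like 8 was at 0 at 8% sucrose and had 0.0625, 0.136 and 0.0881 CPM at 3% sucrose, which is near the level of 3 counts. The remaining untested hits were SWEET2a, SWEET6b, sugar transport protein 5, ERD6-like 4, probable polyol transporter 6 and putative polyol transporter 2, each under 1 CPM in every library.

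The NR and Swiss-Prot databases did not always give the same member of a family. The leading SWEET14 cluster has a SWEET9-like protein of sugar beet as its best NR hit, and Cluster-2051.8180 a protein named N3. The leading cluster of the probable plastidic glucose transporter 2 hit has plastidic glucose transporter 3 of sugar beet as its best NR hit. The INT4 clusters and Cluster-2051.95413 have a putative Na+/myo-inositol symporter of ice plant. Numbers in the names of single members are therefore those of Swiss-Prot only.

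The authors' deposited table calls 50 of the 285 members higher and 57 lower at 8% sucrose. Of the 88 members called here, 81 have the same call in the authors' deposited table, 7 have none there and 0 have the opposite one.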
